A study of Mus musculus with 20 samples.

Results

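The pentose phosphate pathway was followed through the 7 genes that encode its core enzymes, which were taken by name from the 2 count tables and make up 7 of the 56748 genes listed there. The oxidative branch was represented by 3 genes, G6pdx, Pgls and Pgd, and the non-oxidative branch by 4 genes, Rpia, Rpe, Tkt and Taldo1. All 7 had at least 171 counts in each of the 20 libraries and all passed the filter on low counts in both experiments.

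The pathway branches from glycolysis at glucose 6-phosphate. Its oxidative branch makes NADPH and ribulose 5-phosphate in an irreversible series of steps, and the reversible non-oxidative branch exchanges carbon between ribose 5-phosphate, the precursor of nucleotides, and the glycolytic intermediates. In macrophages NADPH is the electron donor for nitric oxide synthase and for the phagocyte NADPH oxidase, and it also keeps glutathione and thioredoxin reduced.

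Poly(A) RNA was sequenced in 2 experiments, each with a genotype and a stimulation. In the first, macrophages of wildtype C57BL/6J mice or of iNOS knockout (iNOS KO) mice, which lack inducible nitric oxide synthase, were left unstimulated or were given lipopolysaccharide (LPS, 50 ng/mL) with interferon-γ (IFNγ, 30 ng/mL) for 48 h, and each of the 4 groups had 3 libraries. The labels name these 12 libraries BMDM (bone marrow-derived macrophages, grown with 20 ng/mL M-CSF from male or female mice of 6 to 12 weeks), whereas the study's methods describe RNA sequencing of the iNOS experiment in a macrophage-like mouse line, RAW264.7, so the cells are called BMDM-labelled here. The methods describe primary cells as pooled by genotype, so the 3 replicates may not be 3 animals. In the second experiment wildtype and Akr1a1 knockout (Akr1a1 KO) RAW264.7 cells, which were edited by Cas9 and cloned from sorted single cells, were left unstimulated or were given 50 ng/mL LPS with 10 ng/mL IFNγ for 48 h, and each of the 4 groups had 2 clonal libraries. Replicate B of both unstimulated RAW264.7 groups carries a title that says stimulated and a treatment field that says unstimulated, and the treatment field was followed. Their column names, WT_M0b and AkrKO_M0b, also carry the code of unstimulated libraries. Summed proliferation markers, listed below, were 2959 to 3475 CPM in the unstimulated RAW264.7 libraries, these included, and 141 to 227 CPM in the stimulated ones. P-values measure the spread between these libraries, which may in part be technical.

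The knocked-out genes were read first. Nos2, which encodes iNOS, stood at 10370, 11533 and 11313 CPM (counts scaled to a common library size) in stimulated wildtype and at 870.5, 891 and 912 CPM in stimulated iNOS KO libraries, and it had 0 counts in the 3 unstimulated iNOS KO libraries. The tables do not show which exons the remaining Nos2 reads cover. Akr1a1, which encodes an NADPH-dependent aldehyde and S-nitroso-CoA reductase, stood at 427 and 488 CPM in unstimulated wildtype and 206 and 21.8 CPM in unstimulated Akr1a1 KO RAW264.7 libraries. It stood at 576 and 675 CPM in stimulated wildtype and 370.4 and 212 CPM in stimulated Akr1a1 KO libraries, so that all Akr1a1 KO libraries lay below the wildtype libraries of their state but the transcript was not absent. With clones this far apart edgeR did not call Akr1a1 itself lower in unstimulated (log2 fold change -2.01, SE 0.80, edgeR adjusted p = 0.560) or stimulated cells (log2 fold change -1.10, SE 0.77, edgeR adjusted p = 0.643), which limits every comparison of these genotypes.

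The BMDM-labelled libraries held 15072109 to 18878107 counts, and those of the RAW264.7 experiment 11876719 to 44583327 counts. The macrophage genes Csf1r (the M-CSF receptor), Cd68 and Lyz2 were above 290 CPM in all 20 libraries, whereas Mertk, a receptor of mature macrophages for apoptotic cells, was below 7 CPM in all of them. Adgre1, Itgam and Fcgr1 complete the list of 7 macrophage markers. On stimulation of wildtype BMDM-labelled cells 5 were called higher and 2 lower, beside 32.4% and 28.5% of all genes. With library totals Adgre1 (3.36, log2), Fcgr1 (2.43), Itgam (1.28) and Mertk (4.51) were called higher. Csf1r (-1.47), Lyz2 (-0.95) and Cd68 (-0.21) were then called lower. Of 7 macrophage markers, 5 were called lower in unstimulated iNOS KO than in wildtype BMDM-labelled cells (median -0.62, log2), beside 4.09% of all genes tested. After stimulation 2 were called higher and 3 lower (3 and 3 with library totals), beside 24.2% and 24.2% of all genes. In Akr1a1 KO RAW264.7 cells 1 of 6 tested was called lower in each state, beside 0.353% of all genes unstimulated and 0.199% stimulated. The summed level of the 6 lymphocyte markers was below 0.7 CPM in every library (Cd3g at 0), and that of the 4 dendritic cell markers below 5 CPM. The 6 neutrophil markers summed to at most 1.11 CPM in unstimulated and 34.7 to 61.2 CPM in stimulated BMDM-labelled libraries, and to 121 to 420 CPM in stimulated RAW264.7 libraries, of which S100a8 made up nearly all. Fibroblast markers summed to 3.71 to 5.13 CPM in stimulated wildtype and 10.5 to 16.4 CPM in stimulated iNOS KO libraries (Col3a1 at 0). The part of these genes in the results was not tested. Xist, which marks cells with an inactive X chromosome, was below 0.4 CPM in all 20 libraries. Together with the Y-linked Ddx3y, Eif2s3y, Kdm5d and Uty it summed to 49.7 to 143 CPM in BMDM-labelled libraries. In RAW264.7 libraries this sum was at most 0.338 CPM, with Ddx3y, Eif2s3y and Kdm5d at 0 counts. Replicate B of stimulated iNOS KO stood apart from its group, with a chi-square over degrees of freedom of 28.8 and 36.8 against replicates A and C, where the 10 other replicate pairs of this experiment lay between 2.65 and 7.74. Fold changes of members that involve stimulated iNOS KO cells are therefore also given without it. Replicate pairs of the RAW264.7 experiment lay between 15.5 (unstimulated Akr1a1 KO) and 68.6 (stimulated wildtype) on the same measure. The common dispersion of edgeR, a measure of the spread between replicates, was 0.052 there against 0.0084 in the BMDM-labelled experiment. This wider spread limits all comparisons of RAW264.7 groups.

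CPM values and fold changes were scaled by TMM (trimmed mean of M values), which sets the bulk of genes equal between libraries. The TMM factors were 1.13 to 1.20 in unstimulated and 0.81 to 0.89 in stimulated BMDM-labelled libraries, and 1.04 to 1.11 against 0.91 to 0.99 in RAW264.7 libraries. With library totals in place of TMM the median change of genes with a mean log2 CPM over 3 shifted by -0.47 (log2) in wildtype and -0.42 in iNOS KO BMDM-labelled cells, and by -0.24 and -0.16 in wildtype and Akr1a1 KO RAW264.7 cells. Changes on stimulation are thus relative to that bulk of genes, and the direction of a member is said to depend on the scaling where it did. Shares of all genes called are those of edgeR's adjusted p under TMM with no fold limit throughout. None is given for library totals, for unadjusted p, for DESeq2 or for other alternatives.

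The windows upstream of the start sites are shown for G6pdx, the member called higher on stimulation in every genotype, and for Tkt and Rpia, the members whose level moved most with the iNOS genotype. They hold the 250 bases before the annotated start from RefSeq on GRCm38.p6, written 5′ to 3′ on the strand of the gene, with motif matches in capitals. The G6pdx window lies at chrX:74428881-74429130 (minus strand), the Tkt window at chr14:30548881-30549130 (plus strand) and the Rpia window at chr6:70792176-70792425 (minus strand).
G6pdx: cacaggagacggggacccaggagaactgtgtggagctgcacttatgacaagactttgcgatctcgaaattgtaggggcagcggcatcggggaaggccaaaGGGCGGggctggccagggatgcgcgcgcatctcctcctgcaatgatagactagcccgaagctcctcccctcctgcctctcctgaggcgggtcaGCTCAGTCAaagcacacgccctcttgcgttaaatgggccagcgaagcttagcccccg
Tkt: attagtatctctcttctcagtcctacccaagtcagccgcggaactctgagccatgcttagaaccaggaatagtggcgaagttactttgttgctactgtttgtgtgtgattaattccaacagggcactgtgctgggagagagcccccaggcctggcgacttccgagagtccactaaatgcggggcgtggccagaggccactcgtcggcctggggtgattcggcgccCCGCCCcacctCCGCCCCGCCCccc
Rpia: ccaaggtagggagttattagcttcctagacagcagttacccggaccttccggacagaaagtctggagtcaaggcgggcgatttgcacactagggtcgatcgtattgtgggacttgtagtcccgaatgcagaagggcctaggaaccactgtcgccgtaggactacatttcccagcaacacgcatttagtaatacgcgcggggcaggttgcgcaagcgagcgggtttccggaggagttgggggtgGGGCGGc
The letters TGACNNNGC, the core of the antioxidant response element, were searched on both strands and occurred once in the G6pdx window (first base at -57 from the start) and in none of the other members' windows, and they occur in 10.2% of all 32851 windows of the same 250 bases. The GC box GGGCGG occurred in the window of all 7 members (1 of the 2 Pgd starts), with 3 matches in Tkt, of which 2 overlap, 2 in Rpe and 1 in each other window, against 32.7% of all windows. The E-box CACGTG and the letters ACGTG, which lie within it, occurred in no member's window, against 6.02% and 16.6% of all windows. A match is a description of the letters only.

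Levels were compared between genes per kilobase of the gene length in the tables. In unstimulated wildtype BMDM-labelled cells Taldo1 had the highest level, 296 CPM per kb, followed by Pgd with 109.7, G6pdx with 104 and Tkt with 86.6 CPM per kb. Pgls (32.7 CPM per kb), Rpe (11.3 CPM per kb) and Rpia (6.63 CPM per kb) were the lowest. The ranges of Pgd (105 to 113 CPM per kb) and G6pdx (103 to 106 CPM per kb) overlapped, and those of the other neighbours in this order did not. In stimulated iNOS KO cells G6pdx held the first place, with 208 against 178 CPM per kb for Taldo1, and the lowest G6pdx library and the highest Taldo1 library met at 195 CPM per kb.

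Stimulation of wildtype BMDM-labelled cells parted the members under either scaling: G6pdx rose, and Pgls, Rpia, Tkt and Taldo1 fell. Of the 7 genes, 2 were called higher and 4 lower at an adjusted p under 0.05 in edgeR's quasi-likelihood test, beside 32.4% of all 18691 genes tested called higher and 28.5% called lower. The median log2 fold change was 0.23 over the oxidative and -0.99 over the non-oxidative genes, beside 0.071 over all genes tested. With library totals, for which no share of all genes is given, 1 member was called higher and 6 lower. The medians were then -0.23 and -1.45, so that the sign of the oxidative median, which is the value of Pgd, depends on the scaling.

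**Figure D1:**
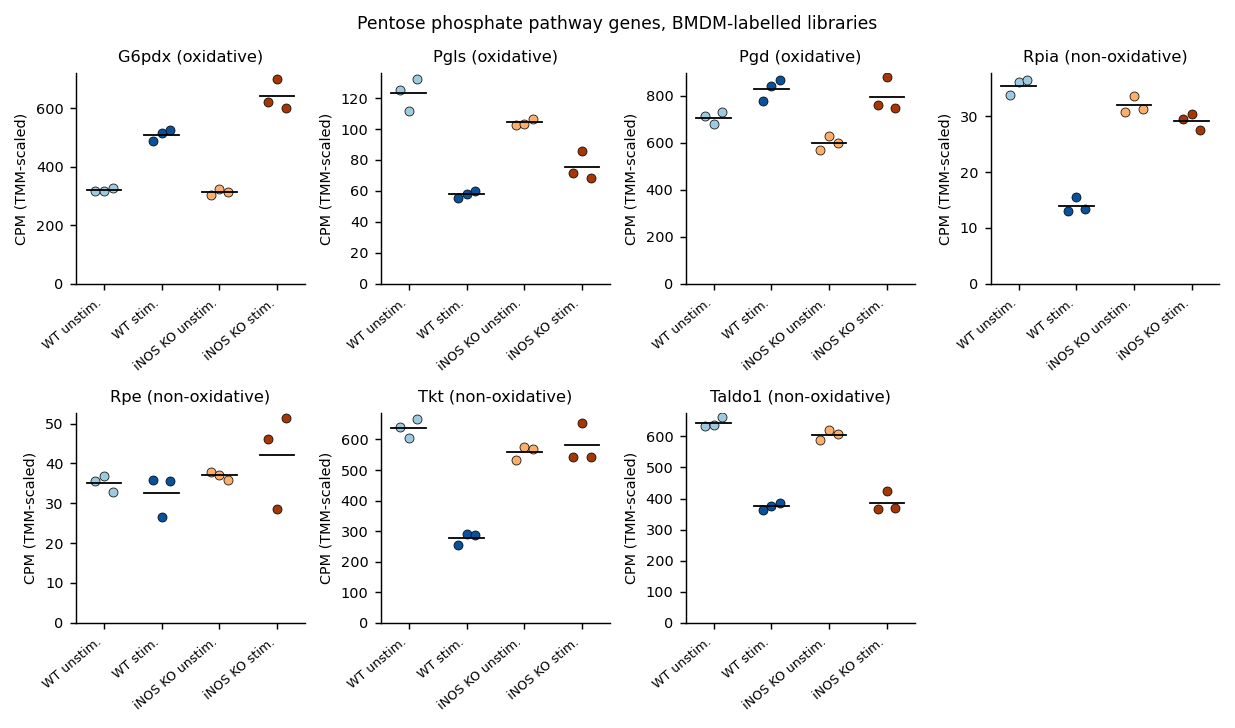
TMM-scaled CPM (vertical axis, from 0) of each member in the 12 BMDM-labelled libraries; points are libraries, bars are means of 3, and the horizontal axis gives genotype and stimulation. Tkt lies between 254 and 290 CPM in stimulated wildtype libraries and at 534 CPM or more in every library of the other groups, and Rpe overlaps between groups.

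G6pdx encodes glucose-6-phosphate dehydrogenase, the first and rate-limiting enzyme of the oxidative branch, and is the X-linked member (ENSMUSG00000031400, listed in the tables at chromosome X, 73453089 to 73472800, minus strand). Its level was 318, 316 and 327 CPM in the 3 unstimulated and 487, 515 and 524 CPM in the 3 stimulated wildtype libraries. All stimulated libraries lay above all unstimulated ones (log2 fold change 0.67, SE 0.063, edgeR adjusted p = 7.25e-08), and with library totals the rise was smaller, 0.20. The gene overlaps Ikbkg, a subunit of the IκB kinase complex on the opposite strand, which went from 50.7, 50.9 and 47.5 to 99.0, 101 and 106 CPM in the same libraries. In stimulated iNOS KO libraries, where G6pdx was highest, Ikbkg stood at 56.6, 54.2 and 47.5 CPM. The strand setting of the counting is not given in the sources used here, so reads of the part that both genes share cannot be told apart, and the same holds for Rpe with Kansl1l and for Pgls with Niban3.

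Pgls encodes 6-phosphogluconolactonase, the second enzyme of the branch (ENSMUSG00000031807, listed in the tables at chromosome 8, 72044820 to 72053736, plus strand). Its level was 125, 112 and 132 CPM before and 55.5, 57.7 and 59.9 CPM after stimulation. Every stimulated library lay below every unstimulated one (log2 fold change -1.09, SE 0.088, edgeR adjusted p = 7.92e-09).

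Pgd encodes 6-phosphogluconate dehydrogenase, which makes the second NADPH of the branch (ENSMUSG00000028961, listed in the tables at chromosome 4, 149234448 to 149251228, minus strand). Its level was 714, 679 and 730.0 CPM before and 779, 843 and 869.9 CPM after stimulation. The groups did not overlap and the difference was called higher with TMM (log2 fold change 0.23, SE 0.070, edgeR adjusted p = 0.00869) but lower with library totals (-0.23, edgeR adjusted p = 0.00365), so its direction depends on the scaling.

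Rpia encodes ribose 5-phosphate isomerase, which makes ribose 5-phosphate from ribulose 5-phosphate (ENSMUSG00000053604, listed in the tables at chromosome 6, 70742704 to 70769216, minus strand). Its level was 33.8, 36.1 and 36.6 CPM before and 13.1, 15.5 and 13.4 CPM after stimulation of wildtype cells, and it showed the largest fall among the 7 genes (log2 fold change -1.34, SE 0.089, edgeR adjusted p = 6.33e-10). Tkt encodes transketolase, which moves 2-carbon units between sugar phosphates (ENSMUSG00000021957, listed in the tables at chromosome 14, 30270316 to 30296677, plus strand). It stood at 639, 603 and 667 CPM before and 254, 289.8 and 288 CPM after stimulation, and the groups were far apart (log2 fold change -1.20, SE 0.079, edgeR adjusted p = 6.15e-10).

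Taldo1 encodes transaldolase, which moves 3-carbon units (ENSMUSG00000025503, listed in the tables at chromosome 7, 140972112 to 140982881, plus strand). It stood at 633, 636 and 662 CPM before and 362, 377 and 386 CPM after stimulation (log2 fold change -0.78, SE 0.063, edgeR adjusted p = 8.83e-09). Rpe encodes ribulose 5-phosphate epimerase, which makes xylulose 5-phosphate (ENSMUSG00000026005, listed in the tables at chromosome 1, 66739990 to 66758964, plus strand). It stood at 35.7, 36.9 and 32.9 CPM before and 35.9, 26.5 and 35.6 CPM after stimulation, and the groups overlapped (log2 fold change -0.11, SE 0.16, edgeR adjusted p = 0.590, 95% interval -0.45 to 0.24). With library totals Rpe was called lower (-0.57, edgeR adjusted p = 0.00761).

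In iNOS KO BMDM-labelled cells the same stimulation was followed by a rise of G6pdx and a fall of Pgls and Taldo1, whereas Rpia and Tkt did not pass the test. The call was higher for 2 members and lower for 2, beside 27.3% and 24.6% of all genes tested, and with library totals it was higher for 1 and lower for 4. G6pdx went from 304, 323 and 313 to 623, 699.7 and 601 CPM (log2 fold change 1.03, SE 0.064, edgeR adjusted p = 4.95e-10), so that the 3 stimulated libraries were all above 600 CPM. Pgls went from 103, 104 and 107 to 71.7, 86.1 and 68.1 CPM (log2 fold change -0.47, SE 0.086, edgeR adjusted p = 1.97e-04). Pgd went from 571, 630.1 and 600.2 to 761, 881 and 749.7 CPM (log2 fold change 0.41, SE 0.070, edgeR adjusted p = 1.03e-04), a rise that was not found with library totals (-0.0085).

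Tkt stood at 534, 577 and 569 CPM in unstimulated and 543, 654 and 544 CPM in stimulated iNOS KO libraries, and the groups overlapped (log2 fold change 0.052, SE 0.078, edgeR adjusted p = 0.610, 95% interval -0.11 to 0.22). Rpia stood at 30.8, 33.7 and 31.3 CPM and 29.5, 30.4 and 27.6 CPM (log2 fold change -0.13, SE 0.084, edgeR adjusted p = 0.197, 95% interval -0.31 to 0.043). Both were called lower with library totals, at -0.37 (Tkt) and -0.55 (Rpia) on the log2 scale, against -1.66 and -1.80 in wildtype cells. Taldo1 fell from 589, 621 and 607 to 368, 424 and 368 CPM (log2 fold change -0.65, SE 0.063, edgeR adjusted p = 1.70e-07). Rpe stood at 37.9, 37.1 and 35.9 CPM before and 46.2, 28.6 and 51.5 CPM after stimulation, with replicate B the low value (log2 fold change 0.19, SE 0.16, edgeR adjusted p = 0.338), and it was called higher without that library (0.40, edgeR adjusted p = 5.02e-04) but came to 0.020 without replicate C (edgeR adjusted p = 0.937). Without replicate B, G6pdx (0.96), Pgls (-0.58), Pgd (0.33) and Taldo1 (-0.72) kept their calls. Tkt (-0.043) and Rpia (-0.16) stayed without one.

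The genotypes were then compared within each state, to ask which differences went with the loss of iNOS. In unstimulated cells no member was called at an adjusted p under 0.05 by edgeR, beside 1.88% of all genes tested called higher and 4.09% called lower in iNOS KO. At an unadjusted p under 0.05, 3 members, Pgls, Pgd and Tkt, were lower, and DESeq2 called 0, with no share of all genes given for either. Pgd came nearest (log2 fold change -0.24, SE 0.070, edgeR adjusted p = 0.0597). All 3 iNOS KO libraries lay below all wildtype ones for Pgd, and likewise for Pgls, Rpia, Tkt and Taldo1. The share of all genes whose groups part in this way was not computed. Without replicate B of stimulated iNOS KO, which enters only through the shared estimate of the spread, Pgls (-0.24), Pgd (-0.24) and Tkt (-0.19) were called lower, and the same 3 genes were called when only the groups compared were fitted.

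In stimulated cells 4 members were higher in iNOS KO than in wildtype and none was called lower, beside 24.2% of all genes tested called higher and 24.2% called lower. Tkt (log2 fold change 1.06, SE 0.079, edgeR adjusted p = 6.79e-09) and Rpia (log2 fold change 1.06, SE 0.090, edgeR adjusted p = 3.86e-08) were about 2-fold higher (2.09 and 2.08). G6pdx (log2 fold change 0.33, SE 0.063, edgeR adjusted p = 2.96e-04) and Pgls (log2 fold change 0.38, SE 0.088, edgeR adjusted p = 0.00164) were higher by a smaller amount. For these 4 genes every iNOS KO library lay above every wildtype library, and the share of all genes that part in this way was not computed.

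Taldo1 did not pass the test (log2 fold change 0.044, SE 0.063, edgeR adjusted p = 0.602, 95% interval -0.089 to 0.18), nor did Pgd (log2 fold change -0.059, SE 0.070, edgeR adjusted p = 0.520, 95% interval -0.21 to 0.089), whose sign turned with library totals (0.040). Taldo1 was called higher with library totals (0.14, edgeR adjusted p = 0.0469). Rpe missed the threshold (log2 fold change 0.37, SE 0.16, edgeR adjusted p = 0.0702) and was called higher without replicate B (0.58, edgeR adjusted p = 7.41e-06), whereas without replicate C it came to 0.20 (edgeR adjusted p = 0.333). It was also called higher with library totals (0.47, edgeR adjusted p = 0.0309) and without a filter on low counts (0.37, edgeR adjusted p = 0.00108). With library totals 2 of the 3 oxidative and 4 of the 4 non-oxidative genes were called higher. Without replicate B the differences of Tkt (0.97), Rpia (1.03), G6pdx (0.27) and Pgls (0.28) kept their calls, and Pgd was called lower (-0.14, edgeR adjusted p = 0.0432).

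**Figure D2:**
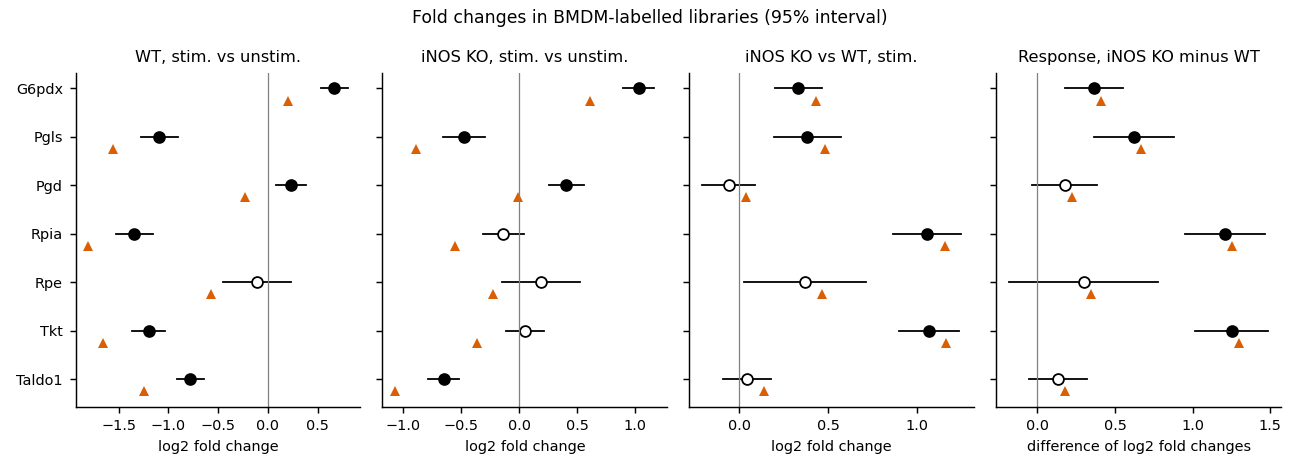
Log2 fold changes (horizontal axis) of the 7 members in 4 comparisons of the BMDM-labelled libraries, from TMM scaling (circles, filled where the edgeR adjusted p was under 0.05, with 95% intervals) and from library totals (orange triangles, no interval). Tkt and Rpia lie at 1.06 in stimulated iNOS KO against wildtype under TMM, and the triangles of the 2 stimulation comparisons lie to the left of the circles, which turns the sign of Pgd in both of them and of Tkt and Rpe in iNOS KO cells.

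The response to stimulation differed between the genotypes for Tkt, Rpia, Pgls and G6pdx, by a test of the difference itself. The response in iNOS KO minus that in wildtype was 1.25 (log2, SE 0.11, edgeR adjusted p = 1.31e-07) for Tkt and 1.21 (log2, SE 0.12, edgeR adjusted p = 6.24e-07) for Rpia. It was 0.62 (log2, SE 0.12, edgeR adjusted p = 6.78e-04) for Pgls and 0.36 (log2, SE 0.089, edgeR adjusted p = 0.00388) for G6pdx. All 4 calls were in the higher direction and none was lower, beside 20.0% and 15.4% of all genes tested, and all 4 were also made with library totals. For Pgd (-0.032 to 0.39), Taldo1 (-0.057 to 0.32) and Rpe (-0.18 to 0.78) the 95% interval of the difference (log2) included 0, and without replicate B of stimulated iNOS KO Rpe was called as well (0.51, edgeR adjusted p = 0.00168) but not without replicate C (0.13, edgeR adjusted p = 0.703). Without replicate B, Tkt (1.16), Rpia (1.18), Pgls (0.52) and G6pdx (0.30) kept their calls, and Pgd (0.10) and Taldo1 (0.060) stayed without one. The comparisons within states and the difference of responses share libraries and are not independent of each other.

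Ratios of counts within a library do not depend on the scaling between libraries. The count of G6pdx over that of Tkt, chosen after the values were seen, was 0.504 ± 0.018 (SD, n = 3) in unstimulated and 1.84 ± 0.073 (SD, n = 3) in stimulated wildtype libraries. It was 0.560 ± 0.0099 (SD, n = 3) in unstimulated and 1.11 ± 0.039 (SD, n = 3) in stimulated iNOS KO libraries. The 3 oxidative genes made up 46.0 ± 0.276% of the counts of the 7 members in unstimulated and 66.7 ± 0.131% in stimulated wildtype libraries (SD, n = 3). In iNOS KO libraries that share was 45.2 ± 0.202% unstimulated and 59.3 ± 0.388% stimulated (SD, n = 3). Ranges did not overlap between the groups of the stimulation and genotype comparisons in either measure. No test is given for these measures, since the ratio was chosen for its values and 3 against 3 libraries cannot reach an exact permutation p under 0.1. Both measures were higher in stimulated than in unstimulated libraries of both genotypes, and among stimulated libraries both were lower in iNOS KO than in wildtype. In RAW264.7 libraries the G6pdx count over the Tkt count had a mean of 0.386 unstimulated and 2.24 stimulated in wildtype, and 0.390 and 2.45 in Akr1a1 KO (n = 2 each).

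**Figure D3:**
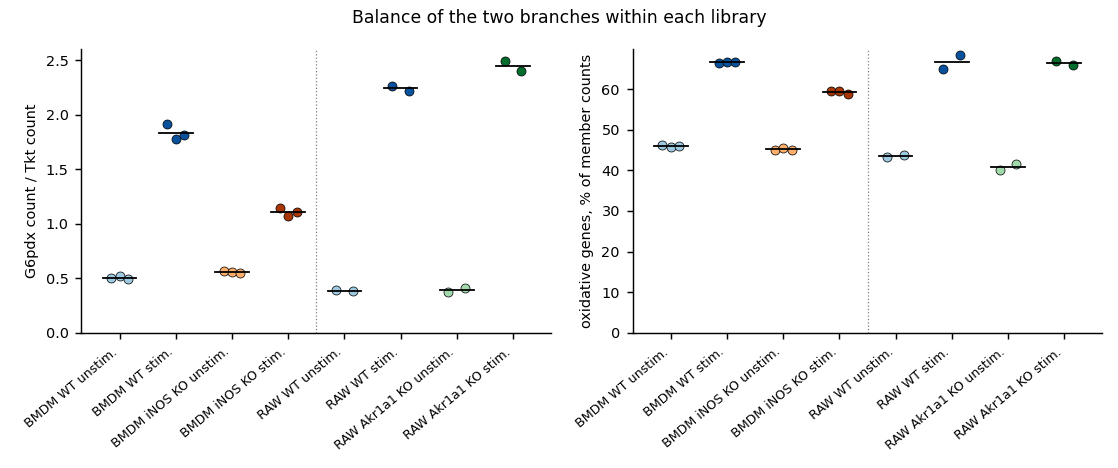
Count of G6pdx over count of Tkt (left, no unit) and share of the 7 members' counts held by the oxidative genes (right, percent) in each of the 20 libraries; points are libraries, bars are group means, and the dotted line parts the experiments. Stimulated libraries lie above unstimulated ones of the same genotype in both experiments, and stimulated iNOS KO lies between the unstimulated groups and stimulated wildtype.

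Proliferation genes also differed between these groups. The summed level of the 6 proliferation markers (Mki67, Top2a, Ccnb1, Cdk1, Mcm6 and Pcna) was 1693 to 1823 CPM in unstimulated and 340.0 to 374 CPM in stimulated wildtype BMDM-labelled libraries, and 1753 to 1929 CPM and 994 to 1296 CPM in the iNOS KO libraries. Of the 6 markers, 5 fell on stimulation of wildtype cells, beside 28.5% of all genes called lower. Pcna was called higher with TMM (0.53) but not with library totals (0.064). After stimulation 5 were higher in the iNOS KO than in the wildtype cells, beside 24.2% of all genes. On stimulation of iNOS KO cells 5 of the 6 were called lower as well and 1 higher (median -0.65, log2), beside 24.6% and 27.3% of all genes. The marker called higher was not called with library totals. In this comparison Tkt and Rpia did not pass the test under TMM, whereas with library totals both were called lower (-0.37 and -0.55, log2). In RAW264.7 cells all 6 fell in both genotypes, beside 19.2% (wildtype) and 19.4% (Akr1a1 KO) of all genes called lower. The summed level went from 3106 to 3475 CPM to 168 to 227 CPM in wildtype libraries. In Akr1a1 KO libraries it went from 2959 to 3060 CPM to 141 to 142 CPM. The part of the proliferation genes in the results on Tkt and Rpia was not tested. In bulk RNA, fewer cells of a kind and less RNA per cell cannot be told apart.

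In wildtype RAW264.7 cells the members again parted on stimulation, with 1 gene higher and 4 lower, beside 18.5% of the 19569 genes tested called higher and 19.2% called lower. G6pdx went from 217 and 220.0 to 499.8 and 471 CPM (log2 fold change 1.15, SE 0.12, edgeR adjusted p = 1.71e-04), so that both stimulated libraries lay at over 2 times the unstimulated level. Tkt went from 551 and 582 to 221 and 212 CPM (log2 fold change -1.39, SE 0.12, edgeR adjusted p = 5.48e-05). Rpia went from 30.6 and 36.0 to 14.2 and 12.0 CPM (log2 fold change -1.35, SE 0.18, edgeR adjusted p = 5.75e-04). The groups of these genes, like those of Pgls and Taldo1, did not overlap, and neither did those of Pgd, which was not called. The share of all genes whose groups do not overlap was not computed.

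Pgls fell from 85.4 and 98.9 to 32.6 and 45.1 CPM (log2 fold change -1.24, SE 0.17, edgeR adjusted p = 6.15e-04) and Taldo1 from 203 and 172 to 113 and 113 CPM (log2 fold change -0.74, SE 0.16, edgeR adjusted p = 0.00631). Pgd stood at 352 and 354 CPM before and 273 and 345 CPM after stimulation (log2 fold change -0.19, SE 0.16, edgeR adjusted p = 0.392). Rpe stood at 74.6 and 74.5 CPM and 88.5 and 60.9 CPM, with the 2 stimulated libraries on either side of the unstimulated ones (log2 fold change 0.0020, SE 0.23, edgeR adjusted p = 0.999). Neither passed the test, and the 95% intervals of their log2 fold changes were -0.57 to 0.18 for Pgd and -0.52 to 0.52 for Rpe. The median log2 fold change was -0.19 over the oxidative and -1.04 over the non-oxidative genes, beside -0.028 over all genes tested.

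**Figure D4:**
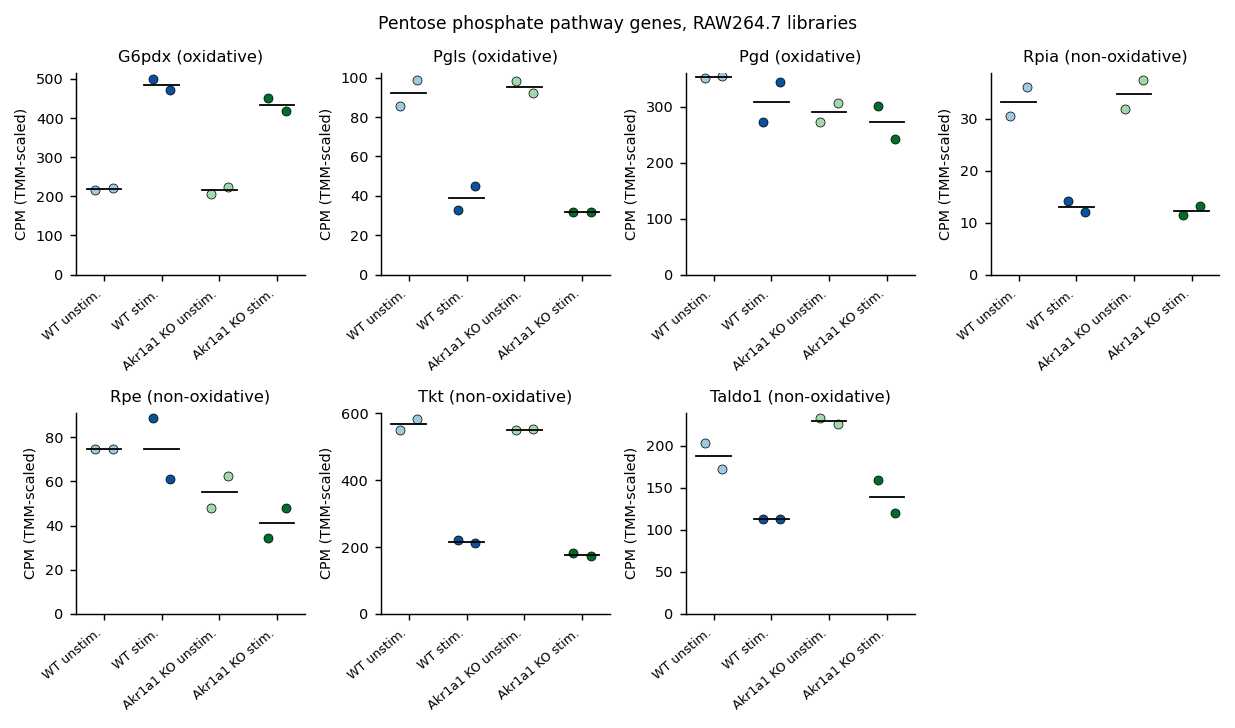
TMM-scaled CPM (vertical axis, from 0) of each member in the 8 RAW264.7 libraries; points are libraries, bars are means of 2, and the horizontal axis gives genotype and stimulation. G6pdx lies between 206 and 224 CPM in the 4 unstimulated and between 417 and 500 CPM in the 4 stimulated libraries, and Rpe is spread within groups.

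In Akr1a1 KO RAW264.7 cells the call was higher for 1 member and lower for 4, beside 19.8% and 19.4% of all genes tested. G6pdx went from 206 and 224 to 451 and 417 CPM (log2 fold change 1.01, SE 0.12, edgeR adjusted p = 3.06e-04). Tkt went from 551 and 552 to 181 and 174 CPM (log2 fold change -1.64, SE 0.12, edgeR adjusted p = 2.44e-05), Rpia from 31.9 and 37.5 to 11.5 and 13.1 CPM (log2 fold change -1.50, SE 0.18, edgeR adjusted p = 3.19e-04) and Pgls from 98.2 and 92.4 to 31.6 and 31.8 CPM (log2 fold change -1.59, SE 0.17, edgeR adjusted p = 1.68e-04). Taldo1 went from 233 and 226 to 159 and 120.1 CPM (log2 fold change -0.72, SE 0.16, edgeR adjusted p = 0.00682), a call that was lost without the 2 libraries of conflicting labels (-0.75, edgeR adjusted p = 0.0504) and without replicate B of stimulated Akr1a1 KO (-0.52, edgeR adjusted p = 0.0558). Pgd (274 and 307 CPM before and 302 and 242 CPM after) and Rpe (47.8 and 62.6 CPM and 34.5 and 48.2 CPM) did not pass it.

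Between Akr1a1 KO and wildtype RAW264.7 cells edgeR called no member in either state, and none for the difference of the responses. Of all genes tested, 0.23% were called higher and 0.353% lower in unstimulated Akr1a1 KO, 0.0869% and 0.199% in stimulated Akr1a1 KO, and 0.00511% and 0.0153% for the difference of the responses. At an unadjusted p under 0.05, 0, 2 and 0 members were found in these comparisons, and DESeq2 called 0, 1 and 0. No share of all genes is given for these counts. The genes behind the counts of members were Rpe and Tkt in stimulated cells. Rpe stood at 88.5 and 60.9 CPM in stimulated wildtype and 34.5 and 48.2 CPM in stimulated Akr1a1 KO libraries (log2 fold change -0.85, SE 0.23, edgeR adjusted p = 0.231), and DESeq2 called it lower (adjusted p = 0.0262).

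The 95% intervals of the log2 difference between stimulated Akr1a1 KO and wildtype cells were -0.44 to 0.11 for G6pdx, -0.55 to -0.021 for Tkt and -0.50 to 0.32 for Rpia. For the difference of the responses they were -0.52 to 0.25 for G6pdx, -0.62 to 0.13 for Tkt and -0.72 to 0.43 for Rpia. The 2 genotype effects, of iNOS and of Akr1a1, were not tested against each other.

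**Figure D5:**
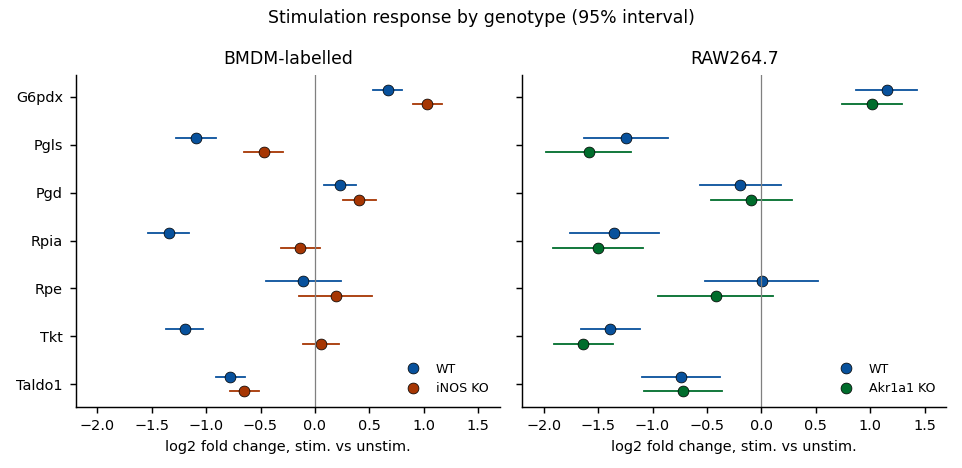
Log2 fold change on stimulation (horizontal axis) of each member in wildtype and knockout cells of the BMDM-labelled (left) and RAW264.7 (right) experiments, with 95% intervals, from TMM scaling. The wildtype and Akr1a1 KO intervals overlap for each gene, whereas those of wildtype and iNOS KO do not overlap for Pgls, Rpia, Tkt and G6pdx, and with library totals all stimulation values of the BMDM-labelled cells lie lower.

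The wildtype responses of the 2 experiments were compared in a single fit of all 20 libraries, which were normalized together from counts that had been deposited in separate tables. G6pdx rose more in RAW264.7 than in BMDM-labelled cells (difference of log2 fold changes 0.55, SE 0.12, edgeR adjusted p = 0.00271), and it was the member called, beside 11.1% of 21826 genes tested called higher and 9.49% called lower. For Tkt the difference of the responses was -0.12 (95% interval -0.41 to 0.17), for Rpia 0.058 (-0.30 to 0.42) and for Pgls -0.076 (-0.45 to 0.30). The cells, the IFNγ dose and the experiment changed together and cannot be told apart.

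Enzymes next to the pathway were read from a list of 16 genes, of which 12 were tested in the BMDM-labelled and 13 in the RAW264.7 experiment. Prps1 and Prps2 encode the synthetases that turn ribose 5-phosphate into phosphoribosyl pyrophosphate (PRPP), and they fell on stimulation of wildtype BMDM-labelled cells (Prps1 -2.69, Prps2 -2.66, log2) and of wildtype RAW264.7 cells (-1.68 and -3.14). Prps1 stood at 9.76, 12.8 and 10.8 CPM in stimulated wildtype and 43.8, 46.2 and 46.1 CPM in stimulated iNOS KO libraries (log2 fold change 2.03, SE 0.088, edgeR adjusted p = 8.90e-12). Over the list, 2 of 12 genes were called higher and 5 lower on stimulation of wildtype BMDM-labelled cells, beside 32.4% and 28.5% of all genes. With library totals 1 was called higher and 9 lower. By either scaling, 6 of 12 genes were called higher and 5 lower in iNOS KO than in wildtype cells after stimulation, beside 24.2% and 24.2% of all genes. The regulatory partners Prpsap1 (-0.46) and Prpsap2 (-0.48) and the glycolytic isomerase Gpi1 (-0.35) were lower there. In Akr1a1 KO RAW264.7 cells edgeR called none of the 13 in either state. The paralogs G6pd2, Tktl1 and Tktl2 were below 0.7 CPM in every library.

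Enzymes of purine and pyrimidine synthesis and salvage were read from a list of 10 genes, all tested, of which Ppat, Umps, Hprt, Aprt and Uprt encode enzymes that take up PRPP itself and the others later steps of purine synthesis. On stimulation of wildtype BMDM-labelled cells 10 of 10 genes were called lower, beside 28.5% of all genes, with a median of -1.93 on the log2 scale. The count was the same with library totals. In stimulated iNOS KO against wildtype cells 8 of 10 genes were called higher (9 with library totals), beside 24.2% of all genes, with a median of 1.33, beside -0.044 over all genes. Umps, the last enzyme of uridine monophosphate synthesis, stood at 6.37, 7.09 and 5.75 CPM in stimulated wildtype and 41.1, 48.9 and 41.9 CPM in stimulated iNOS KO libraries (log2 fold change 2.78, SE 0.11, edgeR adjusted p = 1.94e-12). Pfas (1.83) and Paics (1.68), enzymes of purine synthesis, were higher as well. In wildtype RAW264.7 cells 1 gene, Aprt, was called higher and 9 lower on stimulation, beside 18.5% and 19.2% of all genes. Between Akr1a1 KO and wildtype edgeR called none in either state.

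Other enzymes that make or supply NADPH were read from a list of 5 genes. In stimulated iNOS KO against wildtype cells 4 of 5 genes were called higher, beside 24.2% of all genes, among them Aldh1l1 (3.53) and Mthfd1 (1.84) of folate metabolism and the NAD kinase Nadk (0.57). In unstimulated cells Aldh1l1 (1.42) and the malic enzyme Me1 (0.29) were already higher in iNOS KO, and Idh1 was called lower (-0.32), though not with library totals. On stimulation of wildtype cells 3 of 5 genes were called lower, beside 28.5% of all genes, Mthfd1 the most (-2.70). With library totals 5 were called lower. Idh1, the cytosolic isocitrate dehydrogenase, was lower in stimulated Akr1a1 KO than in wildtype RAW264.7 cells (log2 fold change -1.45, SE 0.15, edgeR adjusted p = 0.00997), the single call of this list between those genotypes.

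Genes whose products use NADPH were read from a list of 8. On stimulation of wildtype BMDM-labelled cells 7 of 8 genes were called higher and 1 lower (6 and 1 with library totals), beside 32.4% and 28.5% of all genes, led by Nos2, Hmox1 (4.49) and Cybb (2.22), the catalytic subunit of the phagocyte NADPH oxidase. The glutathione reductase Gsr fell (-0.41). In stimulated iNOS KO against wildtype cells 2 of 8 genes were called higher and 4 lower, beside 24.2% and 24.2% of all genes, with the knocked-out Nos2 itself (-3.64), Hmox1 (-1.29) and Akr1a1 (-0.62) lower and Blvrb (0.42) and Gsr (0.38) higher. Among 7 transcription factors known to act on genes of these pathways, 3 were called higher and none lower in the same comparison (5 higher with library totals).

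The genes most like each member were found by Pearson's r of log2 CPM over the 12 BMDM-labelled libraries among 8565 protein-coding genes, as a description. They were Dok3 (r = 0.996) and Mov10 (r = 0.996) for G6pdx, Cuedc2 (0.997) and Eftud2 (0.996) for Tkt, and Bckdhb (0.996) and Tdg (0.994) for Rpia. Over the 8 RAW264.7 libraries, which did not choose them, r was 0.983 for Dok3 but -0.0611 for Mov10. Among the members, Tkt and Rpia were the most alike in both experiments, with r = 0.981 over 12 and 0.984 over 8 libraries. The points are 4 groups of libraries that share a stimulation and a scaling, so these values mainly describe the groups.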

How the data were processed

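Gene read counts of 20 poly(A) RNA libraries were taken from 2 deposited tables of 56748 genes each. Per the labels and the study's methods, the authors called bases with CASAVA, removed reads with adaptors, many unknown bases or low quality, and aligned the rest with STAR to mm10. The counting program, its strand setting and tool versions are not given in the sources used here. The deposited values are whole-number counts, without normalization, and the gene lengths in the tables served for levels per kilobase. Positions in the tables do not follow GRCm38, so they are given as listed there, with no build. Groups were taken from the labels.

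Genes with at least 10 counts in total within an experiment were tested (18691 in the BMDM-labelled and 19569 in the RAW264.7 experiment). Counts were scaled by TMM and fitted with 1 mean per group by the quasi-likelihood test of edgeR 4.0.16 (R 4.3.3). P-values were 2-sided and adjusted by Benjamini-Hochberg over all genes tested, and a gene was called at an adjusted p under 0.05 with no fold limit. Intervals are 95% intervals from the same fit. The procedure was tested on simulated counts. CPM values use TMM-scaled totals. Library totals of 11876719 to 44583327 counts set the precision. Counting error was not separated from the spread between libraries. It weighs most for Rpia and Rpe, whose lowest counts in a library were 171 and 392.

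The members, lists and tests were chosen with earlier results of these data known. Genes outside the pathway were named by rule, at most 3 per direction and comparison, as the largest changes among called genes with a mean log2 CPM over 3. Alternatives were DESeq2 1.42.0, median-of-ratios size factors, other filters on low counts, protein-coding genes alone, a fit of only the compared groups, a block by replicate letter, a fold limit, and leaving out libraries. Library totals in place of TMM were added after the data were seen. The replicate letters were not treated as pairs in the main fit.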

Additional observations from a re-analysis of the deposited data

Results flagged for a closer look

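The response to stimulation differed between iNOS KO and wildtype BMDM-labelled cells for 4 members, by the test of the difference itself in edgeR: 0.36 for G6pdx, 0.62 for Pgls, 1.21 for Rpia and 1.25 for Tkt on the log2 scale. The wildtype response of G6pdx differed between the RAW264.7 and BMDM-labelled experiments by 0.55 on the log2 scale, where cells, IFNγ dose and experiment cannot be told apart. The levels of the members were not searched for single outlying libraries, since the groups hold 2 or 3 libraries.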

How the results depend on the processing

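Across the alternatives, 665 values recomputed for single members in the BMDM-labelled experiment, 560 in the RAW264.7 experiment and 115 in the comparison of the experiments kept their direction and their side of the threshold, whereas 10, 24 and 10 turned in sign, 18, 2 and 1 gained a call and 2 (Taldo1 on stimulation of Akr1a1 KO RAW264.7 cells) lost one. Requiring an absolute log2 fold change over 1 lowered the members called from 6 to 3 (stimulated wildtype BMDM-labelled cells), 4 to 1 (stimulated iNOS KO), 4 to 2 (iNOS KO against wildtype, stimulated), 4 to 2 (difference of the responses) and 1 to 0 (wildtype responses of the experiments). No share of all genes is given at this limit. Between unstimulated iNOS KO and wildtype cells the count rose from 0 to 1 without a filter on low counts (Pgd) and to 3 with only the groups compared, and between stimulated Akr1a1 KO and wildtype cells from 0 to 1 with DESeq2 and to 1 without a filter (Rpe).

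With library totals in place of TMM the sign turned for 2 called values, those of Pgd on stimulation of wildtype (-0.23, called lower) and of iNOS KO cells (-0.0085, not called), and for values without a call under TMM: Pgd in iNOS KO against wildtype stimulated (0.040), Rpe (-0.23) and Tkt (-0.37) on stimulation of iNOS KO, G6pdx in unstimulated iNOS KO against wildtype (0.022), Rpe on stimulation of wildtype RAW264.7 (-0.23), and Pgls (0.081) and Tkt (0.038) between the experiments. Other turns of sign were near 0: Pgd 0.013 (only the groups compared), Rpe -0.019 (no filter) and -0.0011 (without the 2 libraries of conflicting labels), Pgls 0.048 (likewise, between the experiments), and Taldo1 -0.0052 (DESeq2) and -0.0049 (median-of-ratios).

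Leaving out 1 library at a time gave ranges that include 0 for Rpe (-0.18 to 0.024, stimulated wildtype), Tkt (-0.043 to 0.097, stimulated iNOS KO) and Taldo1 (-0.027 to 0.078, iNOS KO against wildtype stimulated). In RAW264.7 cells they did so on stimulation for Pgd in wildtype (-0.32 to 0.028) and Akr1a1 KO (-0.27 to 0.076) and for Rpe (-0.23 to 0.30), between the unstimulated genotypes for G6pdx (-0.088 to 0.033), Pgls (-0.054 to 0.16) and Rpia (-0.066 to 0.18), between the stimulated genotypes for Rpia (-0.22 to 0.0089), and in the difference of the responses for Pgd (-0.13 to 0.23) and Taldo1 (-0.26 to 0.17). Between the experiments they did so for Pgls (-0.35 to 0.10), Rpia (-0.10 to 0.19), Rpe (-0.14 to 0.41) and Taldo1 (-0.0015 to 0.24). Members called ranged from 0 to 3 (unstimulated iNOS KO against wildtype), 4 to 6 (stimulated) and 1 to 2 (between the experiments, where Pgd reached -0.54 without replicate B of stimulated wildtype RAW264.7). The cause of these changes was not tested.

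With the replicate letter as a block, the members called numbered 6, 4, 0, 4 and 4 in the BMDM-labelled and 5, 5, 0, 0 and 0 in the RAW264.7 comparisons, as without it, and no call of a member changed. Same-letter libraries correlated over 0.1 in 7 of 18 BMDM-labelled and 4 of 12 RAW264.7 pairs. The medians were -0.022 and -0.0090 and the highest values 0.50 and 0.44. With 2 libraries per group, the RAW264.7 values of A and B are equal by construction. A letter may mark a clone, so these values do not settle whether the letters pair the samples.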

Other observations

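The other members also had close matches over the 12 BMDM-labelled libraries that did not all recur in the 8 RAW264.7 libraries. Tmem109 followed Pgls with r = 0.992 over the former and 0.988 over the latter. Cotl1, an actin-binding protein, followed Pgd with r = 0.992 and 0.114, and Irak1, a kinase of Toll-like receptor signalling, followed Taldo1 with r = 0.996 and 0.765. For Rpe the closest match was Lpgat1 (0.942 and 0.445).

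By CPM, which is not corrected for length, Pgd had the highest level of the 7 members in unstimulated wildtype BMDM-labelled cells, whereas per kilobase it was Taldo1.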
